A study of Oryza sativa with 48 samples.

Results

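Roots of rice seedlings of the genotype labelled aoc were compared after 6 h in 100 mM NaCl and before any salt (0 h) by RNA sequencing, across all identifiers of the deposited count table. The comparison used 6 of the 48 libraries of the study, 3 from salt-treated and 3 from untreated aoc roots, taken by their labels of tissue, genotype and treatment. The study sequenced the root and the 2nd leaf of aoc and of the wild type Kitaake (WT), untreated and after 1, 6 and 72 h of salt, and its stated purpose was to set the responses of both genotypes side by side. All plants had grown for 11 days in hydroponic culture at 28 °C with 12 h of light per day, and each library came from 3 plants of 1 biological replicate.

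For the comparisons around the central one, 6 further groups of 3 libraries were used directly: aoc roots after 1 h and after 72 h of salt, WT roots after 6 h of salt and untreated, and the 2nd leaves of aoc after 6 h of salt, with untreated aoc leaves as their baseline. The labels give aoc by name only. How the genotype was made, in which background, and whether it is 1 line is not given in the sources used here. Untreated plants were sampled at 0 h only, so the effect of salt and that of 6 h of further growth and a later hour of the day cannot be told apart in any change from 0 h below.

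Jasmonates are lipid-derived plant hormones that act in wounding, defence and several abiotic stresses. They are made from a fatty acid of the chloroplast membrane, and allene oxide cyclase, abbreviated AOC, forms the cyclic precursor that is later converted to jasmonic acid. Bioactive jasmonate, bound to isoleucine, leads to the breakdown of JAZ repressors and so releases transcription factors. The root meets salt first: it experiences a fall in water potential at once and an accumulation of sodium ions over a longer time, and changes in transcript levels are part of both responses.

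The table pairs its identifiers with no gene names. Of 35667 identifiers, 1 was found in the reference table used here, which follows another assembly. The gene for allene oxide cyclase was therefore not checked in these libraries, the markers of root and leaf were not used, and the 19 gene lists drawn up for salt, jasmonate and root functions matched 0 members and were not analysed here. Identifiers are given as the table gives them, at most 2 in each direction of a comparison, and the digits after "Os" are the number of the chromosome in this naming system. In whole roots, fewer cells of a type and less RNA per cell cannot be told apart.

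The 3 aoc root libraries at 6 h held 32.1 M, 31.2 M and 33.2 M counts, and those at 0 h held 32.7 M, 28.6 M and 39.2 M. A count of 3 was the floor used here for an identifier without reads. By raw library totals, it was worth 0.0902 to 0.0962 CPM at 6 h and 0.0766 to 0.105 CPM at 0 h. All other CPM are counts scaled to the same library total, counts per 1 M, with TMM factors, which the floor values leave out. Between replicates, the median SD of log2 CPM was 0.19 at 6 h and 0.20 at 0 h. No library was a copy of another: the chi-square between 2 libraries of a group, over its degrees of freedom, was 29.6 to 63.6.

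After 6 h of salt, 8734 of 26195 tested identifiers differed from 0 h in aoc roots, which is 33.3% of those tested (edgeR quasi-likelihood test, Benjamini-Hochberg adjusted p under 0.05). Of these, 4381 rose (16.7% of those tested) and 4353 fell (16.6%). The numbers were nearly equal but the sizes were not. The identifiers that rose had a median log2 fold change of 0.84, and those that fell one of -0.66, against a median of 0.02 over all tested. The smallest changes that were called had sizes of 0.16 among rises and 0.15 among falls.

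The imbalance grew with the size of the change. At least 2-fold, 1818 rose, which is 41.5% of all rises, and 1214 fell, which is 27.9% of all falls. At least 4-fold, 640 rose and 250 fell. At least 8-fold, 291 rose and 66 fell. At 16-fold or more, 139 rose and 18 fell, and at 32-fold or more, 68 rose and 3 fell.

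The direction of the changes went with abundance. Among the 3633 tested identifiers with a mean below 1 CPM over the 6 libraries, 10.3% rose and 4.68% fell. Between 1 and 10 CPM the shares were 17.1% and 12.3% of 8355, and between 10 and 100 CPM they were 18.6% and 21.1% of 12039. From 10 CPM upward falls outnumbered rises, and between 100 and 1000 CPM 15.7% rose and 28.3% fell of 2121. Of the 47 identifiers at 1000 CPM or more, 7 rose and 17 fell. The median SE of the log2 fold change was 0.56 below 1 CPM, 0.13 between 10 and 100 CPM, 0.11 between 100 and 1000 CPM and 0.18 at 1000 CPM or more.

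**Figure D1:**
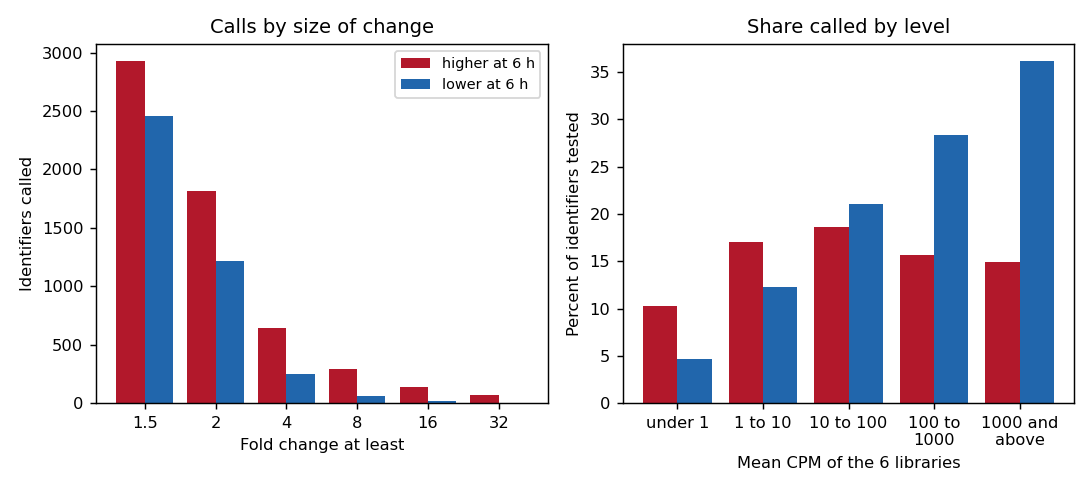
Left, numbers of identifiers called higher and lower in aoc roots at 6 h against 0 h (adjusted p under 0.05), by the least fold change counted; right, the percent of tested identifiers called in each direction by mean level over the 6 libraries in CPM. At 1.5-fold the counts are 2927 and 2458 and at 32-fold 68 and 3, while falls outnumber rises from 10 CPM upward.

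**Figure D2:**
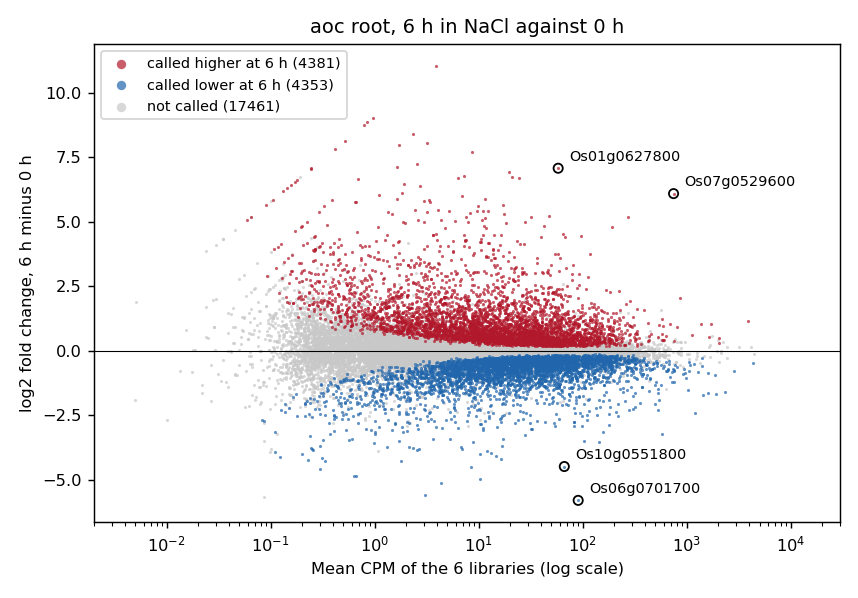
Log2 fold change of aoc roots at 6 h over 0 h (vertical axis) against the mean level over the 6 libraries in CPM (horizontal axis, log scale); each point is 1 tested identifier, coloured by whether it rose, fell or was not called. Rises reach further from 0 than falls, and falls are the more frequent at the right, above 100 CPM.

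Read out per library, the rising identifiers took 23.0%, 20.3% and 20.7% of all counts at 6 h, against 12.2%, 11.3% and 12.2% at 0 h. The falling identifiers took 18.7% to 21.7% at 6 h and 30.3% to 32.8% at 0 h. These shares describe lists chosen on the same libraries and are no test. The 100 most abundant identifiers of each library held 12.6% to 13.1% of the counts at 6 h and 13.4% to 14.5% at 0 h. The number of identifiers at 1 CPM or more was 22312 to 22627 at 6 h and 21920 to 22276 at 0 h, so the 2 groups did not overlap in either measure.

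All 3 libraries at 6 h lay above all 3 at 0 h for 6002 tested identifiers (22.9%) and below them for 5550 (21.2%). A switch from no reads to reads was rare. At 0 h, 28 identifiers had no read in any library but at least 3 in every library at 6 h. They were low throughout, with a median level of 0.263 CPM and a highest of 7.74 CPM at 6 h. Of the 28, 15 were abundant enough to be tested and 14 of those were called higher, against 16.7% of all tested identifiers. The 28 were chosen on these same libraries, so their calls add no support. In WT roots, 27 of the 28 had a read at 6 h and 15 had one at 0 h. The reverse, no read at 6 h and at least 3 in every library at 0 h, was found for 3 identifiers, none of which was abundant enough to be tested.

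The changes were spread over all 12 chromosomes. The share of tested identifiers that rose ran from 15.2% on chromosome 7 to 18.0% on chromosome 8, and the share that fell from 13.6% on chromosome 11 to 18.5% on chromosome 3. In the order of the identifiers' numbers, the next tested identifier after one that rose had also risen in 23.5% of cases and had fallen in 14.3%. After one that fell, the next had also fallen in 21.1% and had risen in 13.5%. Over all tested identifiers, 16.7% rose and 16.6% fell. The longest run of neighbours changing the same way was 7 in either direction, and runs of 4 or more numbered 52 for rises and 41 for falls. With such shares some runs arise anyway, and the number to be had from the shares alone was not computed. Neighbours with similar sequences can share reads, and how the counting treated such reads is not given in the sources used here.

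The largest rise at 6 h among identifiers whose higher group averaged 50 CPM or more was that of Os01g0627800, on chromosome 1. It stood at 204.8, 31.0 and 109.8 CPM in aoc roots at 6 h, against 0.0599, 0.512 and 1.87 CPM at 0 h. The lowest of these values, that of replicate 1 at 0 h, came from 2 reads and lies below the floor. The groups did not overlap, and the lowest library at 6 h was still far above the highest at 0 h, although the 3 libraries at 6 h differed widely among themselves. The log2 fold change was 7.07 ± 0.91 (SE) with an adjusted p of 3.40e-05 in edgeR's quasi-likelihood test.

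The next largest rise was that of Os07g0529600, on chromosome 7. It stood at 1904, 1110 and 1398 CPM in aoc roots at 6 h, against 28.4, 16.88 and 19.8 CPM at 0 h. Replicate 1 was the highest and replicate 2 the lowest in both groups, and the groups did not overlap. Its log2 fold change was 6.08 ± 1.15 (SE, edgeR adjusted p of 0.000667). The spread was estimated over all 24 root libraries, and the 3 aoc root libraries at 72 h held 92.6, 971 and 103 CPM of this transcript.

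Among identifiers that averaged 50 CPM or more at 0 h, Os06g0701700 on chromosome 6 fell the most. It stood at 3.62, 2.73 and 3.15 CPM at 6 h, against 73.0, 263 and 197 CPM at 0 h. The level at 6 h was nearly the same in all 3 libraries, while untreated replicate 1 lay well below the other untreated ones. The log2 fold change was -5.81 ± 0.95 (SE, edgeR adjusted p of 0.000226).

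Os10g0551800, on chromosome 10, fell the next most among them and with a smaller error. It stood at 3.08, 4.75 and 9.07 CPM at 6 h, against 82.9, 159.6 and 139 CPM at 0 h, without overlap. The log2 fold change was -4.49 ± 0.45 (SE, edgeR adjusted p of 5.26e-06).

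**Figure D3:**
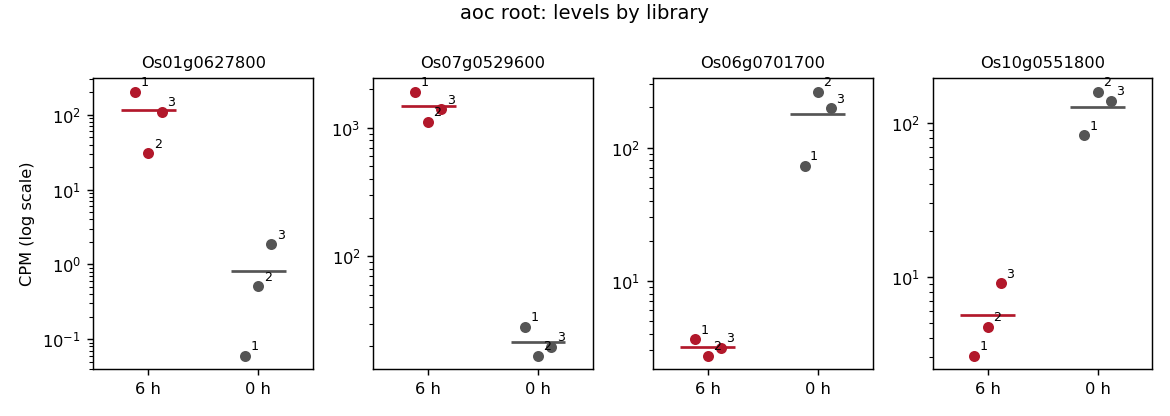
Levels in CPM (log scale) of the 4 named identifiers in aoc roots at 6 h and 0 h; each point is 1 library with its replicate number, and the bar is the group mean. Os01g0627800 and Os07g0529600 lie higher at 6 h than at 0 h in every library, and Os06g0701700 and Os10g0551800 lie lower.

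Against 1 h of salt, 9169 identifiers differed at 6 h in aoc roots (35% of 26195), with 4500 higher at 6 h and 4669 lower (edgeR, adjusted p under 0.05). At least 2-fold, 1584 were higher and 1328 lower. This comparison and the one with 0 h share the libraries at 6 h, so their values are given side by side and not as support for each other.

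The changes seen at 6 h had different histories at 1 h. Os01g0627800 was not called at 1 h against 0 h (adjusted p of 0.719 in edgeR). It averaged 0.814 ± 0.942 CPM at 0 h, 0.583 ± 0.379 CPM at 1 h, 115 ± 87.0 CPM at 6 h and 6.01 ± 4.09 CPM at 72 h (SD, n = 3 each). Os07g0529600 averaged 21.7 ± 5.97 CPM at 0 h, 29.8 ± 12.6 CPM at 1 h and 1470.5 ± 402 CPM at 6 h. From 1 h to 6 h the log2 fold changes were 7.63 ± 0.96 for Os01g0627800 (edgeR adjusted p of 1.07e-05) and 5.62 ± 1.12 for Os07g0529600 (edgeR adjusted p of 0.000850).

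Both identifiers named for falls were already lower at 1 h than at 0 h. Os06g0701700 averaged 178 ± 96.3 CPM at 0 h, 39.4 ± 26.5 CPM at 1 h, 3.17 ± 0.444 CPM at 6 h and 17.1 ± 17.39 CPM at 72 h (SD, n = 3 each). Os10g0551800 averaged 127 ± 39.7 CPM at 0 h, 43.0 ± 7.11 CPM at 1 h, 5.64 ± 3.09 CPM at 6 h and 11.8 ± 2.27 CPM at 72 h. Both differed at 1 h against 0 h, with log2 fold changes of -2.17 ± 0.79 (edgeR adjusted p of 0.0397) for Os06g0701700 and -1.57 ± 0.39 (edgeR adjusted p of 0.00436) for Os10g0551800. Both were chosen on falls from these same 0 h libraries, so the values are given side by side and not as support.

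Other transcripts peaked at 1 h and had dropped by 6 h. Os03g0296200, on chromosome 3, stood at 4.77, 4.13 and 5.75 CPM at 6 h, against 197, 195 and 237 CPM at 1 h. The 3 libraries of each hour lay close together. The log2 fold change from 1 h to 6 h was -5.42 ± 0.43 (SE, edgeR adjusted p of 5.49e-08). It was still above its untreated level of 0.461 ± 0.363 CPM (SD, n = 3) at 6 h, with a log2 fold change over 0 h of 3.31 ± 0.50 (SE, edgeR adjusted p of 0.000110).

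Os02g0685200, on chromosome 2, stood at 2.96, 1.52 and 0.945 CPM at 6 h, against 102, 112 and 88.3 CPM at 1 h. It had dropped below the untreated level of 7.24 ± 0.948 CPM (SD, n = 3). The log2 fold change at 6 h was -5.80 ± 0.67 against 1 h (SE, edgeR adjusted p of 4.21e-06) and -2.01 ± 0.61 against 0 h (edgeR adjusted p of 0.0169). A comparison of 6 h with 0 h alone thus counts Os03g0296200 among the rises and Os02g0685200 among the falls, although both were highest at 1 h.

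Between 6 h and 72 h of salt, 2428 identifiers changed in aoc roots (9.27% of 26195), 1156 of them higher at 72 h and 1272 lower (edgeR, adjusted p under 0.05). At least 2-fold, 405 were higher and 664 lower at 72 h. The count was 845 without 6 h replicate 1, 1253 without 72 h replicate 1 and 1378 without 72 h replicate 3, and it was 297 when the spread was estimated from these 2 groups alone.

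Os01g0627800 and Os01g0280500, both on chromosome 1, were lower at 72 h. Os01g0280500 stood at 2.01, 7.56 and 7.06 CPM at 72 h, against 107, 27.3 and 50.1 CPM at 6 h and 0.839, 1.35 and 2.79 CPM at 0 h. In replicate 1 it was the highest of the 3 libraries at 6 h and the lowest at 72 h, and the same held for Os01g0627800. The log2 fold changes at 72 h against 6 h were -3.47 ± 0.62 for Os01g0280500 (SE, edgeR adjusted p of 0.00209) and -4.26 ± 0.77 for Os01g0627800 (edgeR adjusted p of 0.00236). With the spread from these 2 groups alone both calls were lost, at adjusted p-values of 0.0697 and 0.0783 in edgeR.

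Neither identifier named for a rise at 72 h against 6 h was called at 6 h against 0 h. As this comparison also shares the libraries at 6 h, the values stand side by side. Os05g0382200, on chromosome 5, stood at 220.1, 115 and 203 CPM at 72 h, against 3.83, 4.10 and 9.82 CPM at 6 h. At 6 h against 0 h its log2 fold change was 0.06 ± 0.51 (SE; adjusted p of 0.945 in edgeR), while at 72 h against 6 h the change was 4.92 ± 0.56 (edgeR adjusted p of 5.99e-05). Os12g0555500, on chromosome 12, stood at 88.6, 375 and 809 CPM at 72 h, against 43.1, 47.98 and 49.5 CPM at 6 h. The 3 libraries at 72 h differed more among themselves than the lowest of them differed from 6 h. Its log2 fold change was 3.18 ± 0.64 (SE, edgeR adjusted p of 0.00475), and with the spread from the 2 groups alone the call was lost, at an adjusted p of 0.0926 in edgeR.

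**Figure D4:**
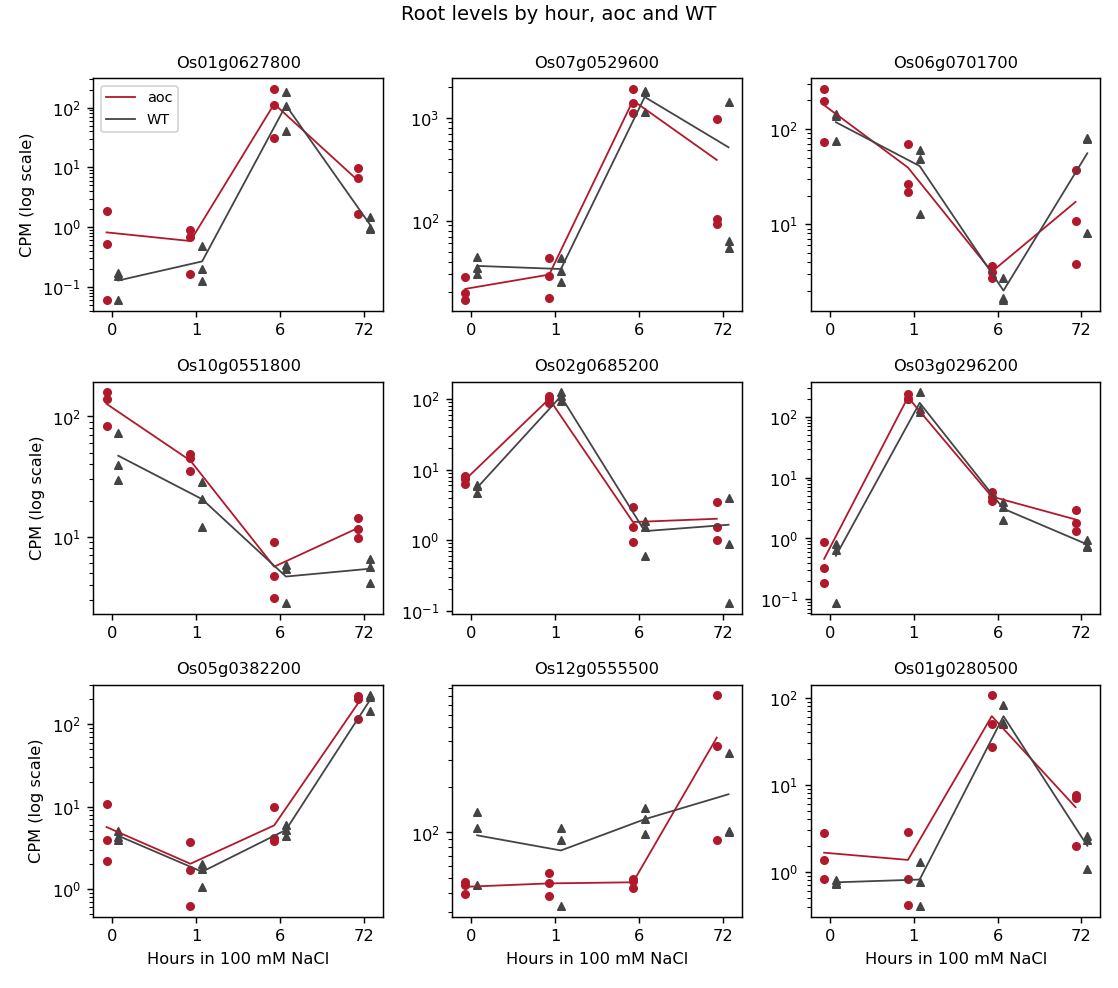
Levels of the named identifiers in roots of aoc and WT at 0, 1, 6 and 72 h in CPM (log scale); points are single libraries and lines join the group means. In aoc, Os03g0296200 and Os02g0685200 are highest at 1 h, Os01g0627800 and Os07g0529600 at 6 h, and Os05g0382200 and Os12g0555500 at 72 h.

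The same 6 h of salt was set against 0 h in WT roots, with other libraries throughout. There 6523 identifiers differed (24.9% of 26195), of which 3406 rose (13%) and 3117 fell (11.9%; edgeR, adjusted p under 0.05). Without WT 0 h replicate 3 the count was 4306. Of the 4381 identifiers that rose in aoc, 2611 also rose in WT, which is 59.6% of the aoc list and 76.7% of the WT list. Of the 4353 that fell in aoc, 2539 also fell in WT, which is 58.3% of the aoc list and 81.5% of the WT list. Without WT 6 h replicate 1, 1639 were shared among the falls. Over all tested identifiers, 82.6% had log2 fold changes of the same sign in both genotypes.

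A call in 1 genotype and not in the other is no test of a difference between them. The test of the difference itself, the 6 h change in aoc minus the 6 h change in WT, called 0 of 26195 identifiers (0%) in edgeR, with 1083 at an unadjusted p under 0.05, or 4.13% of those tested. Among the 10105 identifiers called at 6 h in aoc or WT, 805 had an unadjusted p under 0.05 in edgeR, or 7.97%. These were chosen on the same libraries, so that share is no test. The lowest adjusted p was 0.155. DESeq2 called 16, of which 2 were higher and 14 lower. In edgeR the count was 21 without WT 6 h replicate 2, and all 21 were lower, by at least 2-fold. Many of these, among them Os03g0183500 and Os11g0151400, were also called by DESeq2. The edgeR count was 1 without aoc 0 h replicate 2 (Os12g0548501) and 1 without aoc 0 h replicate 3 (Os11g0312220), both lower. The median SE of the difference was 0.27 on the log2 scale.

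The lists of rises and falls chosen in aoc had medians further from 0 in aoc than in WT. Of the lists chosen in WT, the rises had the median further from 0 in WT and the falls had close medians. Over the 4381 identifiers that rose in aoc, the median log2 fold change was 0.84 in aoc and 0.64 in WT. Over the 3406 that rose in WT, it was 0.88 in aoc and 0.99 in WT. Over the 4353 that fell in aoc, it was -0.66 in aoc and -0.46 in WT, and over the 3117 that fell in WT, it was -0.65 in aoc and -0.62 in WT. Each list was chosen on the values of the genotype it is named for, so its median there is a description and no test.

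The library shares of both lists, chosen on aoc, moved in WT as well. The identifiers that rose in aoc held 19.1% to 20.7% of the counts of WT roots at 6 h and 12.0% to 12.7% at 0 h. Those that fell in aoc held 20.6% to 22.5% of the counts of WT roots at 6 h and 29.6% to 31.7% at 0 h.

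**Figure D5:**
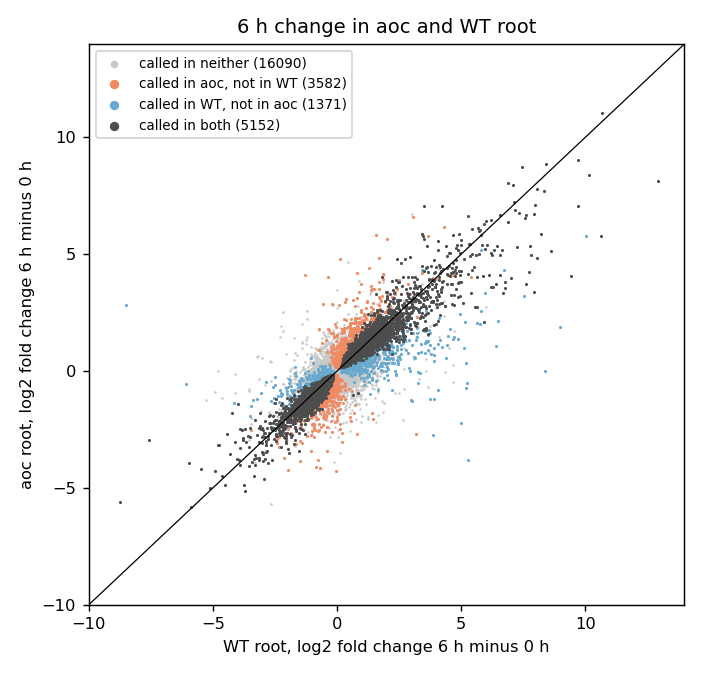
Log2 fold change at 6 h over 0 h in aoc roots (vertical axis) against that in WT roots (horizontal axis), 1 point per tested identifier, coloured by the genotype in which it was called. The points run along the diagonal, and 82.6% of them have the same sign in both genotypes.

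The identifiers named for WT were also called in aoc, in the same direction. Os04g0301500, on chromosome 4, had the next largest rise in WT after Os01g0627800. In aoc it stood at 10.4, 1.71 and 3.03 CPM at 6 h, against 3 reads over the 3 libraries at 0 h. The ratio of the 6 h to the 0 h level in aoc was 167, with an exact 95% counting interval of 57.0 to 815. Of the 505 reads at 6 h, 344 lay in replicate 1. The interval covers counting error only, and edgeR, which also uses the spread between replicates, called the aoc change at an adjusted p of 0.00157. In WT it stood at 94.3, 10.9 and 172 CPM at 6 h, against 0.980, 0.866 and 0.120 CPM at 0 h. That is a change of 7.13 ± 1.04 on the log2 scale (SE; adjusted p of 0.000133 in edgeR). The difference between the changes, 0.10 ± 1.16, did not pass (adjusted p above 0.99 in edgeR), and its aoc side rests on the 3 reads at 0 h.

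Os04g0554500, also on chromosome 4, fell in both. In aoc it stood at 8.66, 31.4 and 48.2 CPM at 6 h, against 108, 254 and 206 CPM at 0 h. That is a change of -2.69 ± 0.54 on the log2 scale (SE; adjusted p of 0.00115 in edgeR). In WT it stood at 2.98, 6.14 and 1.90 CPM at 6 h, against 39.8, 70.2 and 132 CPM at 0 h, and the change was -4.45 ± 0.61 (adjusted p of 8.68e-05 in edgeR). The difference between the changes, 1.76 ± 0.76, did not pass, with an adjusted p above 0.99 in edgeR.

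Os01g0627800 rose in WT too, to 105, 40.3 and 183 CPM at 6 h, against 0.173, 0.149 and 0.0602 CPM at 0 h. Its log2 fold change in WT was 9.70 ± 1.12 (SE, edgeR adjusted p of 2.98e-05). The difference from aoc, -2.63 ± 1.52, did not pass, and its WT side rests on 13 reads over the libraries at 0 h. At 6 h the mean level was 115 CPM in aoc and 109 CPM in WT. Os07g0529600 changed by 5.46 ± 1.11 in WT (edgeR adjusted p of 0.00171), Os06g0701700 by -5.88 ± 0.97 (edgeR adjusted p of 0.000351) and Os10g0551800 by -3.34 ± 0.43 (edgeR adjusted p of 6.19e-05).

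Among 26195 tested identifiers, none rose in aoc and fell in WT, and 2 fell in aoc and rose in WT. These 2 are named because the count is small, after their values were seen. Os11g0482901, on chromosome 11, stood at 3.47, 3.79 and 3.84 CPM in aoc at 6 h, against 5.46, 8.79 and 6.87 CPM at 0 h, and at 21.2, 21.7 and 29.8 CPM in WT at 6 h, against 15.1, 15.3 and 10.1 CPM at 0 h. The groups overlapped in neither genotype. Its log2 fold changes were -0.92 ± 0.21 in aoc and 0.84 ± 0.20 in WT, and the difference was -1.77 ± 0.28 (SE), with an adjusted p of 0.155 in edgeR and 7.53e-05 in DESeq2. Without WT 6 h replicate 2 the difference was called in edgeR, at an adjusted p of 0.0217.

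Os12g0548501, on chromosome 12, stood at 14.4, 11.4 and 12.2 CPM in aoc at 6 h, against 30.5, 15.7 and 30.3 CPM at 0 h, and at 78.3, 48.05 and 90.1 CPM in WT at 6 h, against 35.0, 49.7 and 54.7 CPM at 0 h. In WT the groups overlapped. Its log2 fold changes were -1.01 ± 0.23 in aoc and 0.63 ± 0.22 in WT, and the difference of -1.65 ± 0.32 (SE) had an adjusted p of 0.245 in edgeR and 0.00169 in DESeq2. In edgeR it was called without aoc 0 h replicate 2 (adjusted p of 0.0359) and without WT 6 h replicate 2 (adjusted p of 0.0155).

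In the 2nd leaves of aoc, 6 h of salt changed more identifiers upward than downward: 4778 rose (19.6% of 24317) and 3874 fell (15.9%; edgeR, adjusted p under 0.05). Of the 4381 identifiers that rose in aoc roots, 1488 also rose in leaves, which is 34.0% of the root list and 31.1% of the leaf list. Of the 4353 that fell in roots, 1248 also fell in leaves, which is 28.7% of the root list and 32.2% of the leaf list. Only 4157 of the root rises and 3767 of the root falls were tested in leaves. The others could not be shared, so the 2 shares of the root lists are not directly comparable. Opposite directions were called for 222 that rose in roots and fell in leaves, and for 280 that fell in roots and rose in leaves.

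The test of the difference, the root change minus the leaf change, called 6074 of 27323 identifiers (22.2%), 3011 higher and 3063 lower in edgeR. The labels name an RNeasy kit for roots and Tri-Reagent for leaves. Tissue and extraction cannot be told apart, and extraction effects cancel in this difference only if they are equal at both hours. All 502 identifiers called in opposite directions were also called for the difference. Opposite calls on the same libraries nearly fix that outcome, so it adds no support. Of the 2736 called in the same direction, 666 were, with changes of different size. That share is close to the one over all identifiers tested in root, leaf and both tissues together, 5863 of 23252.

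By the same rule of at least 50 CPM in the highest group, the largest positive difference was that of Os03g0790500 on chromosome 3. It stood at 158, 22.8 and 94.0 CPM in aoc roots at 6 h, against 1.41, 2.16 and 3.74 CPM at 0 h. In leaves it stood at 0.205, 0.132 and 0.241 CPM at 6 h, against 0.184, 0.229 and 8.94 CPM at 0 h. The leaf level at 0 h rested on replicate 3, which lay far above both others. The change in roots was 5.22 ± 0.75 (SE, edgeR adjusted p of 8.08e-05) and the difference 9.22 ± 1.71 (edgeR adjusted p of 0.000200). Without leaf 0 h replicate 3 the difference was 5.34 and its call was lost, at an adjusted p of 0.0935 in edgeR.

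Os08g0187900, on chromosome 8, was near the floor in roots and fell in leaves. The aoc roots held 10 reads over 3 libraries at 6 h and 24 at 0 h. It stood at 0.234, 0.428 and 0.344 CPM in leaves at 6 h, against 113, 296 and 164 CPM at 0 h. That is a change of -9.15 ± 1.15 on the log2 scale (SE; adjusted p of 2.14e-05 in edgeR). The difference of 7.96 ± 2.32 (edgeR adjusted p of 0.0123) was lost without root 6 h replicate 2 or 3, at adjusted p-values of 0.0891 and 0.0877 in edgeR.

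In the other direction, Os08g0344600 on chromosome 8 rose in both tissues and rose more in leaves. It stood at 92.6, 84.7 and 74.6 CPM in aoc roots at 6 h, against 41.7, 36.1 and 34.0 CPM at 0 h. That is a change of 1.17 ± 0.21 on the log2 scale (SE; adjusted p of 0.000485 in edgeR). In leaves it stood at 187, 178 and 208 CPM at 6 h, against 3.61, 1.80 and 3.06 CPM at 0 h. The groups did not overlap in either tissue, and the difference was -4.88 ± 0.84 (edgeR adjusted p of 8.14e-05).

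Os05g0202800, on chromosome 5, had 1 read in aoc roots at 6 h and 22 reads at 0 h, all 22 of them in replicate 3. The ratio of the 6 h to the 0 h level in roots was 0.0452, with an exact 95% counting interval of 0.00110 to 0.280 that covers counting error only. With the spread between replicates the root change was not called, at -3.93 ± 2.40 (SE; adjusted p of 0.220 in edgeR). By these fitted values it was slightly larger than the leaf change. In leaves it stood at 101, 256 and 580.1 CPM at 6 h, against 12.97, 13.6 and 45.2 CPM at 0 h. That is a change of 3.71 ± 0.94 on the log2 scale (SE; adjusted p of 0.00482 in edgeR). The difference of -7.58 ± 2.66 had an adjusted p of 0.0365 in edgeR, and without root 0 h replicate 3 it was -1.94 with an adjusted p of 0.989. The call was lost as well without any one root library at 6 h, without leaf 0 h replicate 1 or 2 and without leaf 6 h replicate 3, at adjusted p-values of 0.0522 to 0.0747 in edgeR.

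Of the 4 identifiers named for the root at 6 h against 0 h, Os07g0529600 also rose in leaves, to 5757, 4927 and 5349 CPM at 6 h, against 3.09, 1.47 and 40.7 CPM at 0 h, with a log2 fold change of 8.47 ± 1.71 (SE; adjusted p of 0.000905 in edgeR). The difference between root and leaf was -2.36 ± 1.62 and did not pass. Os01g0627800 was not called in leaves, with a log2 fold change of 0.93 ± 1.25, and the root change minus the leaf change was 6.19 ± 1.61 (SE, edgeR adjusted p of 0.00513). Os06g0701700 fell in leaves by 1.53 on the log2 scale (edgeR adjusted p of 0.0434), and its change in roots exceeded that in leaves by a difference of -4.24 ± 1.04 (edgeR adjusted p of 0.00330). Os10g0551800 was near the floor in leaves, with 3 reads over the libraries at 6 h and 61 at 0 h, 60 of which lay in replicate 3. All 4 were chosen on their changes in the root libraries that the root minus leaf differences reuse. The calls of these differences therefore add no support.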

How the data were processed

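The values are raw read counts per identifier, deposited by the authors in 1 table of 35667 identifiers, 3032 of them without a read and 0 rows naming no gene. The submitters' processing notes name fastp, HISAT2, DESeq2 and the build IRGSP-1.0. The counting tool, annotation, strand setting and any filter: each is not given in the sources used here. Paired reads of 150 bp and a RIN of at least 6 are per the labels' protocols.

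Tests ran in edgeR 4.0.16 on limma 3.58.1 (R 4.3.3). Libraries were scaled by TMM, identifiers filtered with filterByExpr on the groups, and a robust quasi-likelihood model was fitted, with a two-sided F test. All 24 root libraries entered 1 fit of group means, and all 48 entered the fit for root minus leaf. The SE was obtained by dividing the absolute log2 fold change by the square root of F. A call is a p under 0.05 after Benjamini-Hochberg adjustment over all identifiers tested. Total counts of 28.6 M to 71.7 M per root library set the floor of 3 counts. Without molecular identifiers in the reads, floors and intervals describe counting error only.

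Identifiers were named as the 2 largest rises and 2 largest falls of each comparison, if called, averaging 50 CPM or more in the higher group and without overlap between groups. For differences of changes, the larger change had to be without overlap, with sizes judged by the ratio of group mean CPM plus 0.01. Os05g0202800 met this by its leaf change, although its fitted root change, between overlapping groups, was slightly larger. The comparisons, lists and rules were chosen with earlier results of these data known.

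Deviations of same-numbered libraries at 6 h and 0 h correlated across identifiers at 0.312, 0.112 and 0.444 in aoc. In WT they correlated at 0.305, 0.234 and 0.333. Numbers were taken to pair these libraries, although in aoc the same number gave the best match for only 2 of 3. For 6 h against 1 h in aoc the values were 0.307, 0.0799 and 0.530, also with 2 of 3. These values hardly separate the 2 comparisons in aoc, and the main tests used no pairing. In every comparison other than 6 h against 0 h in roots of 1 genotype, at least 1 correlation was below 0.1. For aoc minus WT in roots that value was 0.0327, between aoc at 6 h and WT at 0 h in replicate 2. At the same hour, same-numbered aoc and WT roots correlated at 0.435, 0.274 and 0.343 at 0 h. At 6 h they correlated at 0.330, 0.261 and 0.211. At both hours the same number gave the best match for 3 of 3. The labels call replicates biological but name no shared culture.

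Alternatives were RLE factors, no filter, DESeq2 1.42.0, a replicate block, the compared groups alone and each library left out. After the data were seen, 2 were added: leaf 72 h libraries left out for root minus leaf, and root WT 1 h replicate 3, the deepest library, left out. The fits were tested on simulated data.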

Additional observations from a re-analysis of the deposited data

Results flagged for a closer look

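The 6 h changes of aoc differed between root and leaf for 6074 identifiers by the test of the difference itself (edgeR, adjusted p under 0.05). The 4 identifiers named for this comparison were chosen among those called in it, so their calls add no support. The root change minus the leaf change was 9.22 for Os03g0790500 and 7.96 for Os08g0187900 on the log2 scale. The first rose in roots. The second was not called in roots, with a change of -1.23, and fell in leaves. It was -7.58 for Os05g0202800 and -4.88 for Os08g0344600. Both rose in leaves, and in roots the first was not called and the second rose less. Os08g0344600 kept its call whichever library was left out, and the other 3 each lost theirs without at least 1 library. Groups of 3 libraries are too small for a systematic search for single outlying libraries, so none was made. Libraries that stood apart for named identifiers are described below as seen.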

How the results depend on the processing

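The count of 8734 for aoc roots at 6 h against 0 h stayed within 1.5 times of itself under every alternative run, with 6067 to 8167 when 1 library was left out, 8725 with RLE factors, 8302 without a filter, 9483 in DESeq2, 6028 with the 2 groups alone and 8597 without root WT 1 h replicate 3. With the replicate block, which assumes that equal numbers pair libraries, the counts for 6 h against 0 h were 10142 in aoc and 7887 in WT. For 72 h against 6 h, where the numbers were not shown to pair, the block gave 3672 in place of 2428. It changed no other call of a named identifier and no other count by over 1.5 times. The same comparison gave 297 with its groups alone (5272 at an unadjusted p under 0.05) and 845 to 2173 with 1 library left out. Leaving out 1 library gave 4306 to 5603 for WT roots and 0 to 21 for aoc minus WT, which DESeq2 put at 16. Root minus leaf ranged from 4819 to 6218 with 1 library left out and was 7897 without the leaf 72 h libraries, where Os05g0202800 lost its call (adjusted p of 0.0588 in edgeR). Among single named identifiers, 238 alternatives kept the direction and the call, 14 lost the call and 0 turned the direction. The causes were not tested. Below 1 CPM the median SE of the 6 h change was 0.56, and the part of sequencing depth in it was not tested.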

Other observations

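Os07g0529600, the transcript with the next largest rise in aoc roots at 6 h, was uneven at 72 h in the same replicate of each group. Replicate 2 held 971 CPM in aoc roots, where replicates 1 and 3 held 92.6 and 103 CPM, and 1431 CPM in WT roots, where they held 54.2 and 63.4 CPM. In leaves, replicate 2 held 3183 CPM in aoc, where replicates 1 and 3 held 53.7 and 556 CPM, and 2368 CPM in WT, where they held 30.9 and 320 CPM. The highest library was thus replicate 2 in 4 of 4 groups.

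The untreated aoc leaf library of replicate 3 stood apart for several transcripts named in roots. It held 16.8 CPM of Os03g0296200, where replicates 1 and 2 held 0.0612 and 0.131 CPM. It held 40.7 CPM of Os07g0529600, where they held 3.09 and 1.47 CPM, and 5.84 CPM of Os04g0554500, where neither had a read. For others it did not stand apart: it held 23.5 CPM of Os06g0701700, where they held 46.3 and 18.4 CPM. Without this library the root minus leaf count was 5266. The part of this library in the other leaf values was not tested.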
